A study of Mus musculus with 8 samples.

Results

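White and brown adipocyte genes were followed in mouse mammary tumours that differed in the growth factor receptor gene Fgfr1. The set holds 34 genes of lipid storage, fat hormones and heat production, chosen by name out of 21368 genes that the arrays measured with a named probe, and every member had at least 1 probe. The members carried 41 probes, with 27 genes read by 1 probe and 7 by 2. The 8 tumours were each hybridised to a single 2-colour Agilent array. Of these, 4 came from K19-tva mice homozygous for the floxed allele fgfr1loxP/loxP (FGFR1 KO). The other 4 were tumours of K19-tva controls (WT). Both groups had the FVB background. K19-tva is named for the keratin 19 promoter and the avian retrovirus receptor that it drives. The floxed allele came from ICR mice and was backcrossed to FVB. The labels name neither the recombinase that acted on it, nor the tumour-inducing agent, nor the age of the mice. A value below is the log2 ratio of red, the tumour, over green, a common human reference RNA, so levels of different probes cannot be set against each other.

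White fat cells store triglyceride in 1 large droplet and secrete hormones such as leptin and adiponectin. Brown fat cells hold many small droplets and burn fatty acids for heat through uncoupling protein 1 of the mitochondrial inner membrane. In both, the nuclear receptor encoded by Pparg, acting with the partner RXR, and the factor encoded by Cebpa switch on the genes for fatty acid uptake, droplet coating and triglyceride synthesis. The mammary gland lies in a fat pad, so fat cells are normal neighbours of mammary epithelium. Several of these genes also serve milk fat synthesis or fuel use in muscle.

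Promoters from RefSeq (build GRCm38.p6) were found for 23 of the 34 members, as 32 windows of 300 bases from 250 before to 50 after a transcript start. Those of Ucp1, which read high on WT 1 and WT 2 and near 0 on the other 6 arrays, and Lep, the member with a C/EBP match, are shown with the searched letters in capitals. The search covered both strands. AGGTCA is a half-site of PPAR, RXR and other nuclear receptors, and pairs of half-sites were not searched for. The half-site stood in 8 of the 32 member windows (genes Aqp7, Cd36, Plin5, Pparg and Ucp1) and in 16.3% of all 32851 windows. TTGCGCAA, a C/EBP site, stood in 1 member window, that of Lep, and in 0.183% of all. Neither motif contains the other. A match describes the letters only. The Ucp1 window lies at chr8:83290098-83290397 on the plus strand and the Lep window at chr6:29059971-29060270 on the plus strand.
Ucp1: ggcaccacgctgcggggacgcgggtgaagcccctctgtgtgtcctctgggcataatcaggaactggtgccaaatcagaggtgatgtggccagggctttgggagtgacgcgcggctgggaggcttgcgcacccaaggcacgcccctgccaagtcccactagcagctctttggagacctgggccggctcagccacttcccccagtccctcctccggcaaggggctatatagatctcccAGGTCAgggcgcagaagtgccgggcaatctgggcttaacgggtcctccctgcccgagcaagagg
Lep: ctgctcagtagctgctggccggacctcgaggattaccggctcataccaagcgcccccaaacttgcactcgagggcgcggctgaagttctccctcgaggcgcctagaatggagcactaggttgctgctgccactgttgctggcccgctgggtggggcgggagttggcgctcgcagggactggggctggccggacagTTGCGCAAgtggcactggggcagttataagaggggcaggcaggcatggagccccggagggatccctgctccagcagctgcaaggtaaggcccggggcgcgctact

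Some arrays stood apart. The correlation of WT 2 with the other arrays averaged 0.365 across probes, against 0.56 to 0.678 for the rest. Mammary epithelial markers went against the tumour label on that array. Krt8 read 3.27, 2.34, 1.41 and 2.54 on FGFR1 KO 1 to 4 and 1.63, -3.94, 2.35 and 3.27 on WT 1 to 4, and Cldn3, named after its values were seen, read 6.52, 7.59, 7.33 and 7.33 on FGFR1 KO 1 to 4 and 5.95, -0.06, 6.59 and 7.32 on WT 1 to 4. The share of spots with a red signal well above background was 68.9% to 83.9% in FGFR1 KO tumours, against 43.9% to 69.2% in WT tumours. Rows 97 to 336 and columns 83 to 164 of the array formed a rectangle in which 17.7% to 46.9% of the 96 negative controls exceeded 50 red units on the WT arrays, against 0% on the FGFR1 KO arrays. The representative probes of 15 members had at least 1 spot there. All 8 arrays lay on 1 slide, with the FGFR1 KO arrays in 1 row and the WT arrays in the other: genotype and row of the slide cannot be told apart. The Fgfr1 probe with the brightest red signal read 0.45, 0.27, 0.32 and 0.19 on FGFR1 KO 1 to 4 and 0.28, 0.23, 0.38 and 0.33 on WT 1 to 4, a difference of 0.00 ± 0.12 (SE). Neither the labels nor the files place that probe relative to the floxed part, and it was not used to check the genotype.

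The first comparison asked whether adipocyte genes differed between FGFR1 KO and WT tumours. They read lower on average in FGFR1 KO, with WT 1 and WT 2 far above the FGFR1 KO tumours and WT 3 and WT 4 close to them. The median over the 34 members was 0.30, 0.20, 0.35 and 0.17 on FGFR1 KO 1 to 4 and 2.24, 3.68, 0.40 and 0.43 on WT 1 to 4. The 4 FGFR1 KO medians thus lay within 0.17 to 0.35, WT 3 and WT 4 lay just above them, and WT 1 and WT 2 stood far above. A difference in the number of fat cells and one in the RNA per fat cell cannot be told apart in such bulk tissue.

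**Figure D1:**
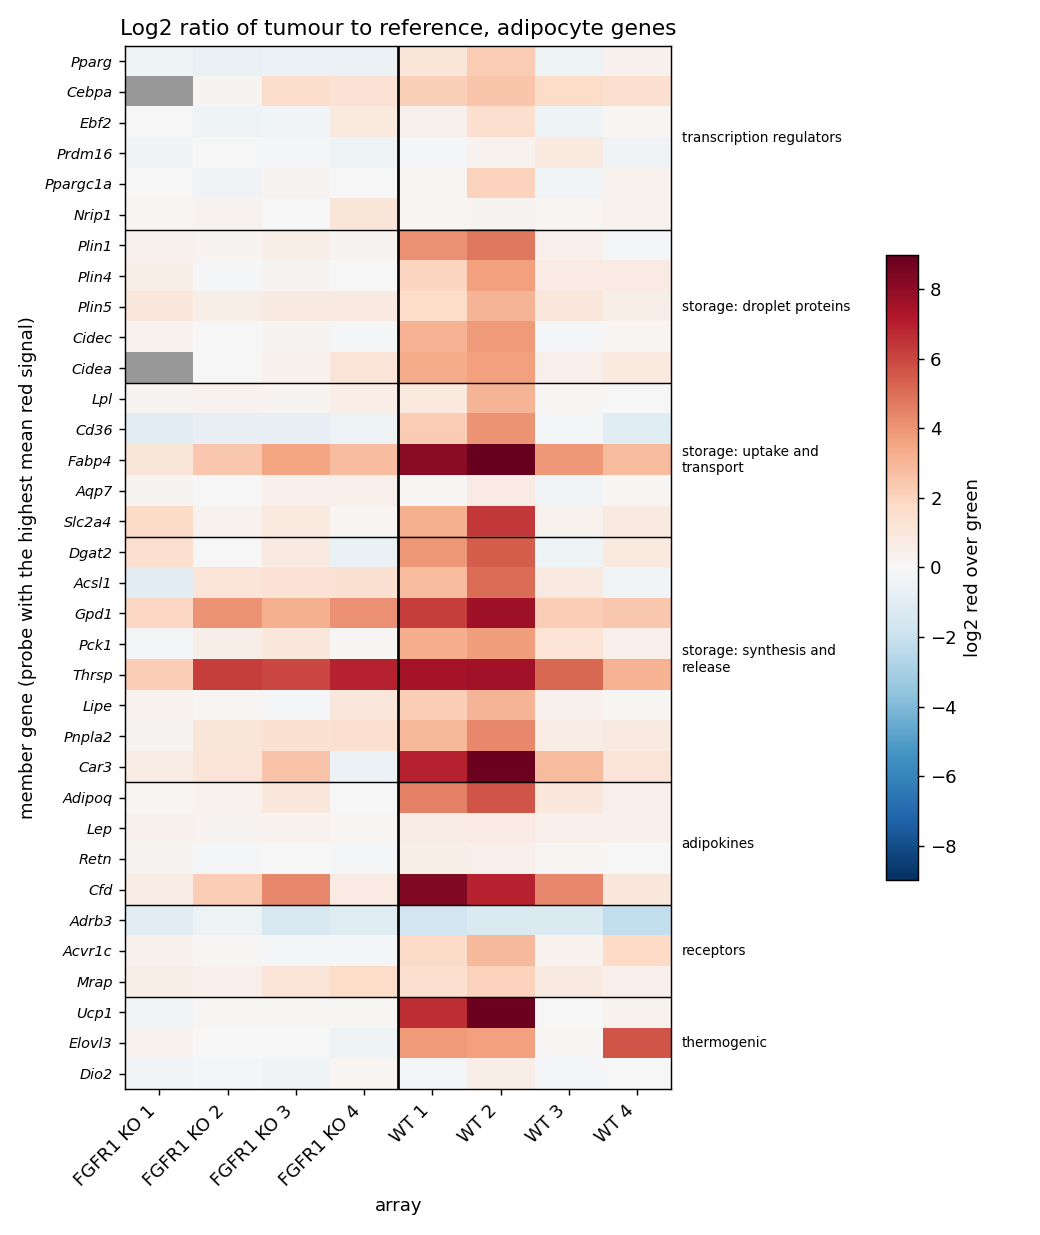
Heat map of the log2 red over green value (colour) of the 34 member genes (rows, grouped by role) on the 8 arrays (columns, FGFR1 KO left of WT); grey marks a spot left out as an outlier. Most rows are strongest on WT 1 and WT 2, and Elovl3 is strongest on WT 4 at 5.64.

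Each gene was represented by the probe with the highest mean red signal. In limma's fit over all probes, with Benjamini-Hochberg adjustment over 39795 probes and a threshold of 0.05, 0 of the 32 members tested passed in either direction. Prdm16 and Acvr1c were not tested, since their probes were well above background on fewer than 4 arrays. Over all probes 0.0101% were called lower and 0% higher, and the 4 called probes all lay in the rectangle and had no gene name. The members' adjusted p-values ran from 0.439 for Elovl3 to 0.916 for Thrsp. At an unadjusted p under 0.05, 8 members were lower and 1, Adrb3, was higher, where 4.85% and 3.63% of all probes were. Of the tested members, 10 were well above background on fewer than 4 arrays of at least 1 group.

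The difference, FGFR1 KO minus WT, was below 0 for 31 of the 34 members, with a median of -1.35, against 47.5% of all tested probes and a median of 0.02. Without WT 1 and WT 2 it was below 0 for 19 of 34, with a median of -0.029, against 47.1% of all probes and a median of 0.02. For the 18 lipid storage genes the median was -1.59 with all arrays and 0.15 without those 2. For the 4 adipokines it was -1.43 and -0.26, and for the 3 thermogenic genes -3.31 and -0.17. WT 1 and WT 2 held the highest 2 values in 24 of 34 members (70.6%), against 6.61% of all tested probes. The members were chosen with earlier results of these data known, so these shares describe the pattern and do not test it. All 4 FGFR1 KO arrays lay below all 4 WT arrays in 2 members, Plin4 and Lep, where 2.71% of all tested probes did so, and in 0 members did they all lie above, where 2.39% of probes did. The 19 members read outside the rectangle had 17 below 0 and a median of -0.82, and the 15 read in it had 14 below 0 and a median of -1.61.

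**Figure D2:**
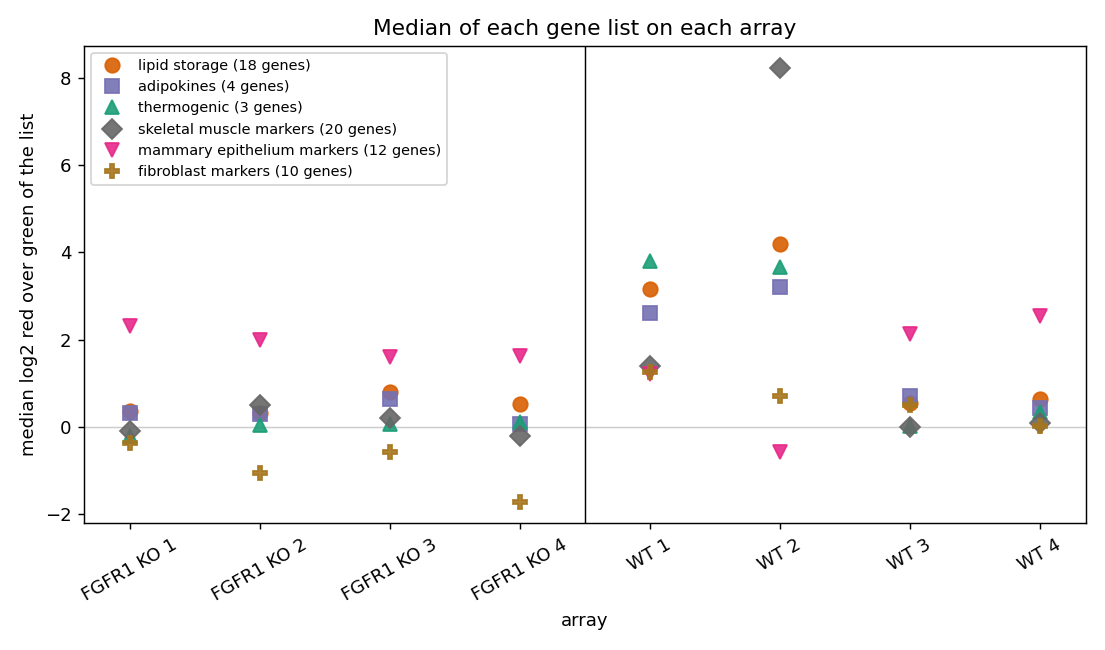
Median log2 red over green (vertical axis) of 3 groups of adipocyte genes and 3 lists of markers of other cell types on each array (horizontal axis, FGFR1 KO left of WT). The adipocyte medians stand at 2.61 to 3.81 on WT 1 and at 3.20 to 4.18 on WT 2, where muscle markers stand at 8.24 and epithelial markers at -0.59.

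Markers of some other cell types also read high or low on WT 1 and WT 2. The median of 20 skeletal muscle markers was -0.10, 0.49, 0.21 and -0.22 on FGFR1 KO 1 to 4 and 1.39, 8.24, 0.00 and 0.08 on WT 1 to 4, with 17 of the 20 highest on WT 1 and WT 2. Their summed red signal was 4054 to 10602 units on the FGFR1 KO arrays, and 15797, 1447170, 2185 and 3497 units on WT 1 to 4. Muscle markers were thus far the highest on WT 2 and next highest on WT 1. The median of 12 mammary epithelium markers was 2.32, 1.99, 1.59 and 1.62 on FGFR1 KO 1 to 4 and 1.22, -0.59, 2.12 and 2.55 on WT 1 to 4, and all 12 read lower on WT 2 than on WT 1. Their summed red signal was 58360 to 157409 units on the FGFR1 KO arrays, against 20525, 4938, 40195 and 80438 units on WT 1 to 4. For 10 fibroblast markers the median ran from -1.71 to -0.36 on the FGFR1 KO arrays and from 0.03 to 1.25 on the WT arrays, with 10 of 10 below 0 in the difference also without WT 1 and WT 2. The highest 2 values were those of WT 1 and WT 2 in 6 of the 10 fibroblast markers and in 6 of 10 endothelial markers, whose median ran from 0.38 to 0.61 in FGFR1 KO and from 0.42 to 1.06 in WT. The same held for 0 of 10 macrophage markers, whose median was 0.52, 0.18, 0.61 and 0.69 on FGFR1 KO 1 to 4 and 1.32, 0.56, 0.91 and 0.60 on WT 1 to 4, lowest on WT 2 among the WT arrays. The part of these cell types in the adipocyte result was not tested.

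The transcription regulators followed the pattern in part. Pparg, the master regulator of fat cell formation, read -0.41, -0.66, -0.50 and -0.53 on FGFR1 KO 1 to 4 and 1.1, 2.32, -0.49 and 0.40 on WT 1 to 4. The 4 FGFR1 KO values lay within a narrow range, with WT 3 among them and WT 1, WT 2 and WT 4 above. Its difference was -1.36 ± 0.50 (SE) (limma, adjusted p = 0.53), with a 95% confidence interval of -2.50 to -0.21, and -0.48 without WT 1 and WT 2. The interval is not adjusted for the number of probes and pools unlike spreads, an SD of 0.11 in FGFR1 KO and 1.19 in WT. A two-sided exact permutation test gave p = 0.0571 for Pparg. Of its 10 spots, 2 lay in the rectangle. Cebpa, which works with Pparg, read 0.21, 1.56 and 1.28 on FGFR1 KO 2 to 4 and 2.15, 2.51, 1.64 and 1.45 on WT 1 to 4, the spot on FGFR1 KO 1 being left out as an outlier. All 4 WT arrays stood above 1.4, but FGFR1 KO 3 reached into their range, and the difference was -0.92 ± 0.38 (SE) over 3 and 4 values. The Cebpa probe lay in the rectangle.

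Ebf2, a regulator of brown and beige fat identity, read 0.03, -0.37, -0.23 and 0.86 on FGFR1 KO 1 to 4 and 0.39, 1.49, -0.41 and 0.15 on WT 1 to 4. It was highest on WT 2, with FGFR1 KO 4 above WT 1. Ppargc1a, the coactivator that raises mitochondrial number in brown fat and muscle, read 0.04, -0.31, 0.27 and -0.01 on FGFR1 KO 1 to 4 and 0.16, 2.08, -0.26 and 0.33 on WT 1 to 4. Only WT 2 stood out, and without WT 1 and WT 2 the difference was -0.03. The medians of the adipocyte members and of the muscle markers were both highest on WT 2, and the source of the Ppargc1a signal was not tested. The Ppargc1a probe was well above background on 5 of 8 arrays, and the gene was described after its values were seen. A second probe in the rectangle was well above background on 1 array, WT 2. Nrip1, a repressor of the heat programme in fat, read 0.12, 0.29, -0.05 and 1.08 on FGFR1 KO 1 to 4 and 0.12, 0.28, 0.20 and 0.34 on WT 1 to 4. It did not follow WT 1 or WT 2, and its highest value was on FGFR1 KO 4. Prdm16, a brown fat regulator, was well above background on 1 array and gives no comparison.

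Droplet proteins followed the pattern of high WT 1 and WT 2 closely: in all 5, WT 1 and WT 2 held the highest 2 values. Plin1, the coat protein that guards the droplet of white fat cells, read 0.35, 0.25, 0.57 and 0.25 on FGFR1 KO 1 to 4 and 4.13, 4.74, 0.43 and -0.12 on WT 1 to 4. The remaining 6 arrays stayed at or below 0.57, and without WT 1 and WT 2 the difference turned to 0.20, from -1.94 ± 1.03 (SE) with them. Plin1 was well above background on 5 arrays, and it is given in full after its values were seen. Cidec, which fuses droplets into larger ones, read 0.33, -0.07, 0.23 and -0.19 on FGFR1 KO 1 to 4 and 3.15, 3.87, -0.10 and 0.20 on WT 1 to 4. A second Cidec probe spread further, with 0.16, 0.21, 1.22 and 0.11 on FGFR1 KO 1 to 4 and 6.08, 7.29, 1.29 and 0.15 on WT 1 to 4, and was well above background on 3 arrays. Both Cidec probes lay outside the rectangle and showed the same order of WT 2 over WT 1 over the rest.

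Plin4, another droplet coat protein, read 0.57, -0.17, 0.26 and -0.03 on FGFR1 KO 1 to 4 and 1.92, 3.71, 0.74 and 0.71 on WT 1 to 4. The groups did not overlap, but WT 3 and WT 4 exceeded FGFR1 KO 1 by less than 0.2. Without overlap a two-sided exact permutation test must give p = 0.0286, the lowest value possible with 4 arrays in each group. That p-value only restates the order of the arrays, which 2 of the 34 members and 2.71% of all tested probes showed. Its difference was -1.61 ± 0.61 (SE) (limma, adjusted p = 0.537), and -0.57 without WT 1 and WT 2. The Plin4 probe lay in the rectangle. Plin5, the droplet protein of tissues that burn fat, read 0.97, 0.51, 0.78 and 0.80 on FGFR1 KO 1 to 4 and 1.65, 3.09, 1.03 and 0.54 on WT 1 to 4. It was highest on WT 2, and its difference was -0.82 ± 0.48 (SE). Cidea, a droplet protein typical of brown fat, read -0.01, 0.42 and 1.17 on FGFR1 KO 2 to 4 and 3.34, 3.70, 0.42 and 0.88 on WT 1 to 4, with no value on FGFR1 KO 1. WT 1 and WT 2 again stood apart, while WT 3 and WT 4 lay within the FGFR1 KO range.

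Genes of fatty acid, glucose and glycerol transport had WT 1 and WT 2 highest, except Aqp7. Fabp4, the fatty acid carrier of fat cells, read 1.07, 2.45, 3.55 and 2.75 on FGFR1 KO 1 to 4 and 8.12, 9.32, 3.91 and 2.85 on WT 1 to 4. The red signal behind it was 278, 446, 1374 and 492 on FGFR1 KO 1 to 4 and 18955, 64115, 1461 and 516 on WT 1 to 4, while green stayed at 48 to 109 on the FGFR1 KO arrays and 26.7 to 68.8 on the WT arrays. WT 1 and WT 2 were thus at least 4.21 above any other array on the log2 scale, and WT 3 lay above all FGFR1 KO arrays by a small margin. Its difference was -3.59 ± 1.37 (SE) (limma, adjusted p = 0.539), and -0.92 without WT 1 and WT 2; the probe lay in the rectangle. Cd36, a fatty acid transporter of fat, muscle and endothelium, read -1.03, -0.76, -0.74 and -0.42 on FGFR1 KO 1 to 4 and 2.28, 4.07, -0.09 and -1.09 on WT 1 to 4. It was outside the rectangle and showed the same pair of high arrays, with WT 4 the lowest of all 8.

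Lpl, which frees fatty acids from circulating lipoproteins, read 0.23, 0.30, 0.28 and 0.60 on FGFR1 KO 1 to 4 and 0.89, 3.07, 0.09 and -0.06 on WT 1 to 4. A second Lpl probe read -1.65, 0.78, 0.04 and 1.42 on FGFR1 KO 1 to 4 and 2.89, 4.42, -0.30 and -0.05 on WT 1 to 4. Both probes were highest on WT 2 and next highest on WT 1, while FGFR1 KO 1 read low on the second only. The second probe was not well above background on FGFR1 KO 1 or WT 3. Slc2a4, the insulin-regulated glucose transporter of fat and muscle, read 1.76, 0.33, 0.87 and 0.15 on FGFR1 KO 1 to 4 and 3.17, 6.34, 0.30 and 0.78 on WT 1 to 4. Its excess of WT 2 over WT 1, 3.18, was the largest among the 34 members. Of its 10 spots, 4 lay in the rectangle. Aqp7, the glycerol channel of fat cells, read 0.28, 0.04, 0.44 and 0.45 on FGFR1 KO 1 to 4 and 0.12, 0.73, -0.25 and 0.09 on WT 1 to 4. It was the lipid storage gene without the pattern, with values within 1 log2 unit on all arrays.

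Genes grouped under lipid synthesis and release, Car3 and Thrsp among them, all had WT 1 and WT 2 highest, 8 of 8. Of these, 2 of 8 were below 0 in the difference without those arrays. Dgat2, which makes the last step of triglyceride synthesis, read 1.52, -0.03, 0.80 and -0.59 on FGFR1 KO 1 to 4 and 3.87, 5.44, -0.39 and 0.85 on WT 1 to 4. Pck1, which supplies glycerol backbone in fat, read -0.11, 0.56, 1.03 and 0.14 on FGFR1 KO 1 to 4 and 3.30, 3.73, 1.22 and 0.44 on WT 1 to 4. Both lay in the rectangle, and their differences were -2.02 ± 1.17 (SE) and -1.77 ± 0.70 (SE), or 0.19 and -0.43 without WT 1 and WT 2. Car3, the carbonic anhydrase abundant in fat and slow muscle, had the largest difference of all members. It read 0.68, 1.19, 2.56 and -0.50 on FGFR1 KO 1 to 4 and 6.94, 8.79, 2.85 and 1.19 on WT 1 to 4, a difference of -3.96 ± 1.55 (SE) (limma, adjusted p = 0.547) that came to -1.04 without WT 1 and WT 2. Its probe lay in the rectangle, and WT 3 and FGFR1 KO 3 read alike.

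Lipe, the hormone-sensitive lipase, read 0.33, 0.18, -0.15 and 0.99 on FGFR1 KO 1 to 4 and 2.20, 3.06, 0.38 and 0.08 on WT 1 to 4. Pnpla2, the lipase that takes the first fatty acid off triglyceride, read 0.22, 1.06, 1.38 and 1.47 on FGFR1 KO 1 to 4 and 3.01, 4.29, 0.64 and 0.79 on WT 1 to 4. For both, WT 3 and WT 4 lay within the FGFR1 KO range. The differences were -1.1 ± 0.63 (SE) and -1.15 ± 0.78 (SE). The Lipe probe lay outside the rectangle and the Pnpla2 probe inside it.

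In Gpd1, Acsl1 and Thrsp, FGFR1 KO 1 parted from the other FGFR1 KO arrays. Gpd1, which makes glycerol 3-phosphate, read 1.84, 4.05, 3.19 and 4.09 on FGFR1 KO 1 to 4 and 6.22, 7.63, 2.24 and 2.44 on WT 1 to 4. Acsl1, which activates fatty acids, read -0.94, 1.19, 1.32 and 1.34 on FGFR1 KO 1 to 4 and 2.83, 5.0, 0.78 and -0.24 on WT 1 to 4, and its second probe read -0.48, 1.38, 1.32 and 1.35 on FGFR1 KO 1 to 4 and 2.84, 4.96, 0.36 and 0.16 on WT 1 to 4. Thrsp, a regulator of fatty acid synthesis in fat and lactating mammary gland, read 2.22, 6.22, 5.98 and 6.90 on FGFR1 KO 1 to 4 and 7.51, 7.55, 5.19 and 3.11 on WT 1 to 4. In these 3 genes FGFR1 KO 2 to 4 exceeded WT 3 and WT 4, and FGFR1 KO 1 was lower than WT 3 and WT 4 in each, so that without WT 1 and WT 2 the differences turned to 0.95, 0.46 and 1.17. None of these was called (limma, adjusted p = 0.818, 0.971 and 0.938). Pnpla2 shared this order: 0.22 on FGFR1 KO 1 lay below WT 3 (0.64) and WT 4 (0.79), and FGFR1 KO 2 to 4 lay above both. Its difference without WT 1 and WT 2 was 0.32. Milk genes, listed after the values were seen, had a low median on FGFR1 KO 1 and a lower one on WT 2. The median of 6 was 1.64, 7.76, 6.78 and 5.51 on FGFR1 KO 1 to 4 and 5.53, 0.24, 6.05 and 5.07 on WT 1 to 4. Wap had no value on FGFR1 KO 1 and does not enter that median. Csn1s1 was less low there, at 6.56, against 7.21, 7.29 and 6.93 on WT 1, WT 3 and WT 4. The part of milk-producing cells in Gpd1, Acsl1, Thrsp and Pnpla2 was not tested.

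In all 4 adipokines WT 1 and WT 2 held the highest 2 values, with spans that differed by gene. Adipoq, which encodes adiponectin, read 0.09, 0.34, 0.98 and -0.05 on FGFR1 KO 1 to 4 and 4.53, 5.64, 0.98 and 0.42 on WT 1 to 4. The difference was -2.55 ± 1.08 (SE) (limma, adjusted p = 0.578) and -0.36 without WT 1 and WT 2, and the probe lay outside the rectangle. Cfd, which encodes the complement protease adipsin, read 0.68, 2.18, 4.32 and 0.77 on FGFR1 KO 1 to 4 and 8.31, 6.93, 4.34 and 1.04 on WT 1 to 4. It was the member with the largest excess of WT 1 over WT 2, 1.38 on the log2 scale, and FGFR1 KO 3 and WT 3 shared an intermediate value near 4.3. Its difference was -3.17 ± 1.5 (SE), and -0.71 without WT 1 and WT 2.

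Lep, which encodes leptin, read 0.38, 0.26, 0.29 and 0.16 on FGFR1 KO 1 to 4 and 0.69, 0.76, 0.42 and 0.45 on WT 1 to 4. All WT arrays lay above all FGFR1 KO arrays, but WT 1 and WT 3 were not well above background, the whole range was under 0.6 and the difference was -0.31 ± 0.14 (SE) (limma, adjusted p = 0.591). In red signal alone the order was different, with units of 174, 86.1, 68.6 and 74.1 on FGFR1 KO 1 to 4 and 51.9, 115, 41.4 and 66.5 on WT 1 to 4, so that FGFR1 KO 1 was the highest. Of the 10 Lep spots, 5 lay in the rectangle. Retn, which encodes resistin, had 2 probes of unequal spread. The brighter read 0.25, -0.11, -0.05 and -0.10 on FGFR1 KO 1 to 4 and 0.56, 0.44, 0.08 and 0.05 on WT 1 to 4, and the other read 0.89, 0.16, 0.35 and 0.33 on FGFR1 KO 1 to 4 and 2.69, 1.97, 0.41 and 0.58 on WT 1 to 4, and both probes were highest on WT 1 and next on WT 2.

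**Figure D3:**
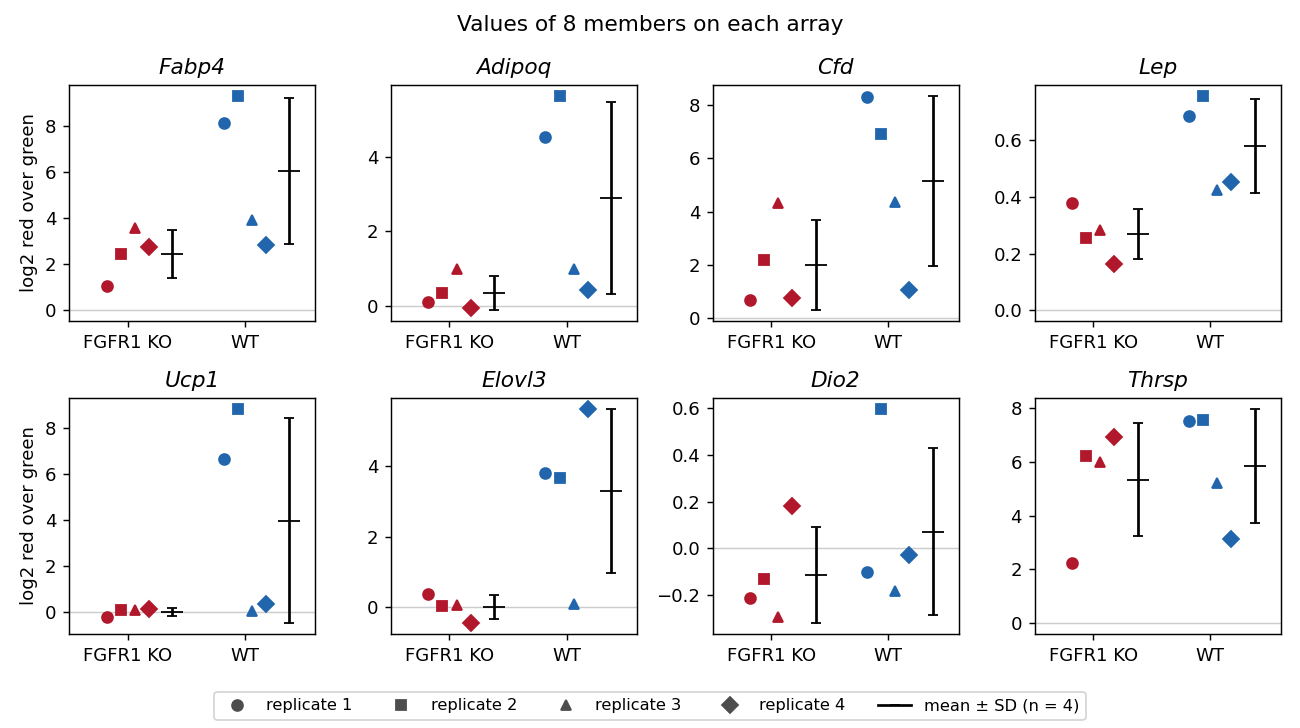
Log2 red over green of 8 members on each array (marker shape gives the replicate number), FGFR1 KO left of WT, with the group mean and SD (n = 4) as bars; each panel has its own vertical scale. WT 1 and WT 2 stand apart in Fabp4, Adipoq, Cfd and Ucp1, WT 4 is highest in Elovl3, and FGFR1 KO 1 is lowest in Thrsp at 2.22.

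Receptors gave no common direction. Adrb3, the adrenergic receptor through which noradrenaline starts lipolysis and heat production, had 2 probes that disagreed. The brighter read -0.94, -0.43, -1.43 and -1.1 on FGFR1 KO 1 to 4 and -1.75, -1.32, -1.29 and -2.23 on WT 1 to 4, a difference of 0.67 ± 0.28 (SE) (limma, adjusted p = 0.56), with green above red on all arrays. The other probe, in the rectangle, read -0.18, 0.08, 0.15 and -0.11 on FGFR1 KO 1 to 4 and 1.99, 3.24, 0.55 and -0.09 on WT 1 to 4 and was well above background on WT 2 alone. Acvr1c, the activin receptor ALK7 of fat cells, read 0.40, 0.10, -0.15 and -0.08 on FGFR1 KO 1 to 4 and 1.75, 2.94, 0.30 and 1.82 on WT 1 to 4 on a probe in the rectangle that was well above background on 2 WT and 0 FGFR1 KO arrays. A second probe, outside the rectangle, read -0.26, -0.03, -0.16 and 0.16 on FGFR1 KO 1 to 4 and 0.77, 1.77, 0.08 and -0.14 on WT 1 to 4 and was well above background on WT 2 alone. Both were highest on WT 2, the probes disagreed on WT 4, and neither was tested. Mrap, a partner protein of the ACTH receptor, read 0.61, 0.47, 1.15 and 1.64 on FGFR1 KO 1 to 4 and 1.42, 2.07, 0.78 and 0.46 on WT 1 to 4. The FGFR1 KO range lay within the WT range, with FGFR1 KO 4 above WT 1.

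Thermogenic genes behaved as 3 separate patterns. Ucp1, the uncoupling protein that defines brown and beige fat, read -0.24, 0.08, 0.10 and 0.11 on FGFR1 KO 1 to 4 and 6.63, 8.83, 0.03 and 0.34 on WT 1 to 4. The red signal in units was 47.7, 9.74, 33.7 and 30.2 on FGFR1 KO 1 to 4 and 3545, 29908, 19 and 18.6 on WT 1 to 4, while green stayed at 17 to 51.5 on the FGFR1 KO arrays and 4.58 to 23.8 on the WT arrays. Both WT 1 and WT 2 stood far above all other arrays. WT 3, WT 4, FGFR1 KO 2 and FGFR1 KO 3 were not well above background, so the size of the gap depends on the background correction. Its mean was 0.01 ± 0.17 in FGFR1 KO tumours and 3.96 ± 4.45 in WT tumours (SD, n = 4 in each group), a difference of -3.94 ± 1.84 (SE) (limma, adjusted p = 0.607) with a 95% confidence interval of -8.11 to 0.22. Without WT 1 and WT 2 it was -0.17. The probe lay outside the rectangle, and 2 arrays of each group were well above background; it is given in full after its values were seen.

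Elovl3, a fatty acid elongase of brown fat and of skin sebaceous glands, read 0.35, 0.03, 0.06 and -0.47 on FGFR1 KO 1 to 4 and 3.81, 3.67, 0.08 and 5.64 on WT 1 to 4. It was high on 3 WT arrays, and highest on WT 4, where Ucp1 read 0.34. The red signal in units was 91.2, 9, 7.54 and 5.16 on FGFR1 KO 1 to 4 and 434, 751, 20.2 and 2134 on WT 1 to 4. Its difference was -3.31 ± 0.98 (SE) (limma, adjusted p = 0.439; two-sided exact permutation test, p = 0.0571). Without WT 1 and WT 2 the difference was -2.87, which then rested on WT 4, with WT 3 inside the FGFR1 KO range. FGFR1 KO 2 to 4 and WT 3 were not well above background, so its size depends on the background correction. The probe lay outside the rectangle, and it is given in full after its values were seen. Dio2, the deiodinase that activates thyroid hormone in brown fat, read -0.21, -0.13, -0.29 and 0.18 on FGFR1 KO 1 to 4 and -0.10, 0.60, -0.18 and -0.03 on WT 1 to 4. It did not follow Ucp1, with WT 1 inside the FGFR1 KO range and a difference of -0.19 ± 0.20 (SE).

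WT 1 and WT 2, 1 array each, can be set side by side as values only. WT 2 was the higher in 31 of 34 members, with a median excess of 0.98, where the muscle markers had a median excess of 6.85. The excess ran up to 3.18 in Slc2a4, and WT 1 was the higher in Retn, Elovl3 and Cfd. Plin1 and Adipoq, whose products are made mainly in fat cells, read 0.61 and 1.11 higher on WT 2. Fat cell products did not all go that way: among the 4 adipokines WT 2 was the higher in 2, with a median excess of -0.026. Elovl3, Adrb3, Nrip1 and Prdm16 stayed below the highest of the remaining 6 arrays on both WT 1 and WT 2.

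Further fat and lipid synthesis genes showed the same arrays in part: WT 1 and WT 2 held the highest 2 values in 20 of 37 (54.1%). Of these 37 genes outside the set, 36 were tested and 0 passed in either direction (limma, 4 at an unadjusted p under 0.05). Their median difference was -0.60, with 31 of 37 below 0, and -0.0049 without WT 1 and WT 2, with 19 of 37 below 0. Rbp4, the retinol carrier, read -0.58, -0.39, -0.50 and -0.87 on FGFR1 KO 1 to 4 and 3.69, 6.04, 0.11 and -0.61 on WT 1 to 4, close to Adipoq in shape. Scd1, the main fatty acid desaturase, read -0.09, 2.69, 3.94 and 2.75 on FGFR1 KO 1 to 4 and 5.92, 5.69, 1.96 and 2.95 on WT 1 to 4, with FGFR1 KO 1 the lowest as in Thrsp. Rarres2, which encodes the adipokine chemerin, read 0.29, 0.71, 0.76 and -0.07 on FGFR1 KO 1 to 4 and 2.65, 2.02, 2.10 and 0.84 on WT 1 to 4, a difference of -1.48 ± 0.37 (SE) (limma, adjusted p = 0.349) with no overlap between groups, and -1.04 without WT 1 and WT 2. WT 3 was above WT 2 in it. Rbp4 and Rarres2 were named after their values were seen.

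**Figure D4:**
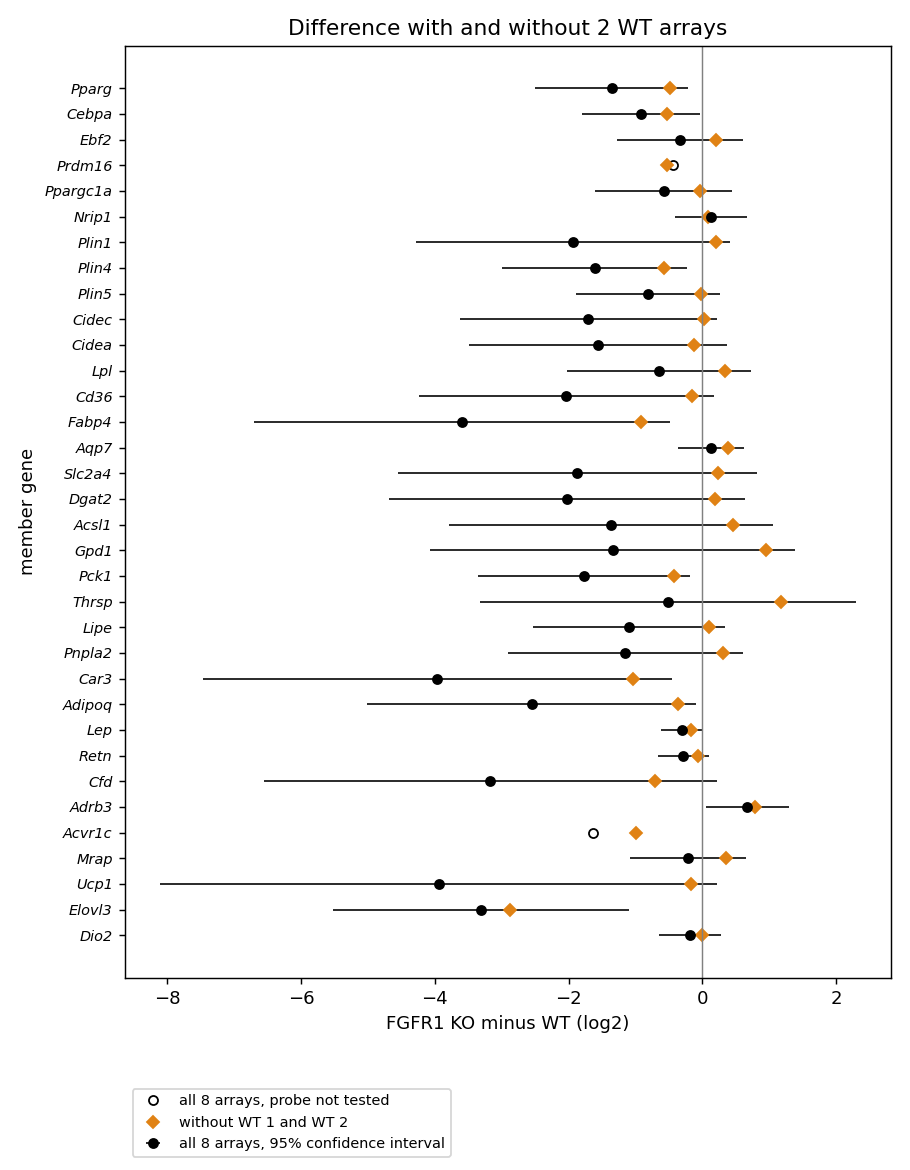
Difference FGFR1 KO minus WT (horizontal axis, log2) of the 34 members (rows, grouped by role) with all 8 arrays, as points with the 95% confidence interval of the fit, and without WT 1 and WT 2, as diamonds; open points were not tested. The median of the points is -1.35 and that of the diamonds -0.029, and Elovl3 is the lowest diamond at -2.87.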

How the data were processed

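Per the file headers, Agilent Feature Extraction 11.0.1.1 read the arrays, and the median signal and background columns are intensities with no correction. Per the file headers, Agilent's ratio column holds log10 of processed red over processed green, intensities that the software background-subtracted, detrended and dye-normalized. The authors' deposited matrix correlated at 0.985 to 0.991 with the log2 ratios computed here, with slopes of 1.12 to 1.16 on them, so it holds log2 ratios of the same direction. The medians of its columns, in replicate order, were 0.0155, -0.0152, -0.000673 and 0.00487 in FGFR1 KO and -0.0044, -0.0014, -0.00486 and 0.00217 in WT; no source used here states its centring.

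The label field names cy3 only, while the labelling protocol gives the tumour the red dye. Green varied less within groups, with correlations between arrays of 0.96 to 0.983 in green against 0.86 to 0.958 in red, so green was taken as the reference. In R 4.3.3 with limma 3.58.1, median signals were corrected by normexp (offset 50) and normalized by loess within arrays. Control and outlier spots were left out and spots of a probe averaged. Of 55681 probes, 39795 had a red signal well above background on 4 or more arrays and had at least 3 values in each group; these were tested by lmFit and eBayes, two-sided. Probes were named by RefSeq accession in a GRCm38.p6 gene table (28331 probes). The rectangle was set from negative controls. The fit was tested on simulated data. Separate animals are not stated for the tumours, so the p-values reflect only the spread among these samples, which may be technical; precision is limited by the number of arrays. The members and lists were chosen with earlier results of these data known. All members were named, with values on every array where the probe was well above background on 4 arrays of 1 group. Ppargc1a, Plin1, Acvr1c, Ucp1, Elovl3 and some second probes are given in full outside that rule. Genes of other lists were among the 3 brightest of their list or were named after their values were seen.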

Additional observations from a re-analysis of the deposited data

Results flagged for a closer look

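Of 66 groups of 4 values checked, 2 held a value far from the rest by Dixon's test, where chance gives about 1 in 20. In FGFR1 KO, Acsl1 read -0.94 on FGFR1 KO 1 against 1.19 for the nearest of the other 3 arrays. Also in FGFR1 KO, Ucp1 read -0.24 on FGFR1 KO 1 against 0.08 for the nearest, on a probe that was well above background on 2 FGFR1 KO arrays.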

How the results depend on the processing

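No member passed limma's test under any of 20 settings; the lowest adjusted p was 0.0523, for Elovl3 without WT 3. Over all probes, 4 were lower with the settings used and 6 with the deposited matrix. The count was 139 with no filter on dim probes, 11 with array weights and 0 with Agilent's ratio, red signal alone, median centring, only probes above background on all 8 arrays, the rectangle left out, trend and robust eBayes or WT 1 and WT 2 left out. It ran from 0 to 1 with 1 array left out. With 1 array left out, the median difference ran from -1.80 to -0.59 for all members, from -2.11 to -0.80 for lipid storage, from -1.87 to -0.94 for adipokines and from -4.38 to -2.32 for thermogenic genes. The value nearest 0 was always that without WT 2, by more than 1.5 times for all members (-0.59), lipid storage (-0.80) and adipokines (-0.94). With array weights the median was -0.70 for all members and -1.04 for lipid storage, and with the rectangle left out -0.82 for all members. Without both WT 1 and WT 2 the 4 medians were -0.029, 0.15, -0.26 and -0.17. The adipokine median was -2.55 over probes above background on all 8 arrays, where fewer adipokines remain, and the thermogenic median -5.44 with Agilent's ratio; the cause was not tested.

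Of 655 single values, 25 changed sign, in 15 members. Without WT 1 and WT 2 these were Ebf2 (0.20), Plin1 (0.20), Cidec (0.027), Lpl (0.33), Slc2a4 (0.24), Dgat2 (0.19), Acsl1 (0.46), Gpd1 (0.95), Thrsp (1.17), Lipe (0.10), Pnpla2 (0.32) and Mrap (0.35). With red signal alone they were Ebf2 (0.41), Aqp7 (-0.21) and Lep (0.13), and with array weights Thrsp (0.26) and Mrap (0.060). With 1 array left out, Ebf2 ran from -0.60 to 0.028, Nrip1 from -0.11 to 0.26, Lpl from -1.0 to 0.041, Aqp7 from -0.010 to 0.32, Thrsp from -1.42 to 0.52 and Mrap from -0.45 to 0.081. With the replicate number as a block, 0 probes and 0 members passed and the member median was -1.25. Same-numbered deviations correlated at -0.11 to 0.11. With 1 array per number in each group, this cannot show whether the numbers pair the samples. Depth of signal limits the low values: Ucp1 was well above background on 2 arrays of each group and Plin1 on 5 arrays in all.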

Other observations

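Of 5 lipid enzyme genes set beside Elovl3, picked after their values were seen, 4 were highest on WT 4, and Scd3 was not. Mogat1, an acylglycerol transferase, read -0.20, 0.09, 0.05 and -0.50 on FGFR1 KO 1 to 4 and 0.41, 1.29, 0.04 and 5.06 on WT 1 to 4. Dgat2l6, a relative of Dgat2, read -0.23, 0.07, 0.12 and 0.14 on FGFR1 KO 1 to 4 and 0.04, 0.30, -0.52 and 4.30 on WT 1 to 4 and was well above background on 1 array. Elovl5, an elongase of polyunsaturated fatty acids, read -0.22, 0.17, -0.04 and -0.35 on FGFR1 KO 1 to 4 and 0.61, -0.28, -0.31 and 3.08 on WT 1 to 4. Awat2, a wax ester synthase, read 0.05, 0.26, 0.31 and 0.32 on FGFR1 KO 1 to 4 and 0.40, 0.08, 1.02 and 1.75 on WT 1 to 4 and was well above background on 1 array of each group. Scd3, a fatty acid desaturase, read -0.49, 1.43, 2.48 and 2.17 on FGFR1 KO 1 to 4 and 4.17, 4.57, 1.11 and 3.02 on WT 1 to 4, highest on WT 2. On WT 4, Plin1, Cidec and Adipoq read -0.12, 0.20 and 0.42.

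Cox8b, counted among the 20 skeletal muscle markers, and Cox7a1, of the further fat and lipid synthesis genes, were picked after their values were seen. Both are mitochondrial genes that brown fat and muscle share. Cox8b, a cytochrome c oxidase subunit of both tissues, read -0.38, -0.38, 0.96 and -0.29 on FGFR1 KO 1 to 4 and 5.10, 8.56, 0.34 and 1.66 on WT 1 to 4. The muscle marker Acta1 read 3.00 on WT 1 and 9.61 on WT 2, where the median of the muscle markers was 1.39 and 8.24. Cox7a1, another such subunit, read 0.20, 0.32, 0.40 and 0.08 on FGFR1 KO 1 to 4 and 2.15, 5.80, -0.10 and 0.23 on WT 1 to 4.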
